A study of Mus musculus with 4 samples.

Results

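The 10 genes described here are early response genes that signals through the T cell receptor are known to induce: Egr1, Egr2, Egr3, Nr4a1, Nr4a2, Nr4a3, Phlda1, Cd69, Dusp5 and Dusp6. They were taken by name from the 23480 gene identifiers in the data, after Entrez identifiers were matched to mouse gene symbols, and all 10 were found. The study sequenced 4 RNA libraries from mouse T cells. Of these, 2 came from cells kept under Th9 conditions, which favour helper T cells that make interleukin 9. The other 2 came from cells kept under Th9 conditions with TLA1, as the labels spell it; the series title writes TL1A, a cytokine of the TNF superfamily, and the spellings are read here as one cytokine. The labels used here give no strain, age, genotype, culture time or way of stimulation. They also do not tie the replicates to separate cultures or mice; the p-values below therefore cover only the scatter of these 4 libraries, which may be technical.

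When an antigen receptor is engaged, calcium and Ras-ERK signals reach the nucleus and switch on a first set of genes without new protein synthesis. The EGR zinc finger factors and the NR4A orphan nuclear receptors belong to that set, and Egr2, Egr3 and the NR4A receptors are known for limiting later T cell responses. Cd69 marks recently stimulated lymphocytes on their surface, and the dual specificity phosphatases feed back on the ERK kinases.

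With TLA1 these genes did not move together. Nr4a2 rose 5.87-fold in mean CPM (reads counted in a gene, scaled so that every library has the same total) and Phlda1 fell 12.2-fold, and they were the only members past the test in the limma fit across all genes. Egr1 and Nr4a3 had lower values in both TLA1 libraries than in either Th9 library but did not pass. Egr2, Nr4a1, Cd69, Dusp5 and Dusp6 had overlapping groups in deposited CPM, and Egr3 was close to absent in every library. Of the 9 members that passed the filter on low values, 1 was called higher and 1 lower at an adjusted p under 0.05. Over the 10324 tested genes, 0.891% were called higher and 0.252% lower. On simulated data limma's share of false calls was above the nominal share, so a call is less certain than that threshold implies. In deposited CPM the groups did not overlap in 1 member that was higher and 3 that were lower, against 19.1% and 29.0% of all tested genes. After the scaling between libraries that the fit used, the groups of Egr2 did not overlap either, and Egr2 was higher. In whole-population RNA, fewer cells of a type and less RNA per cell cannot be told apart.

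**Figure D1:**
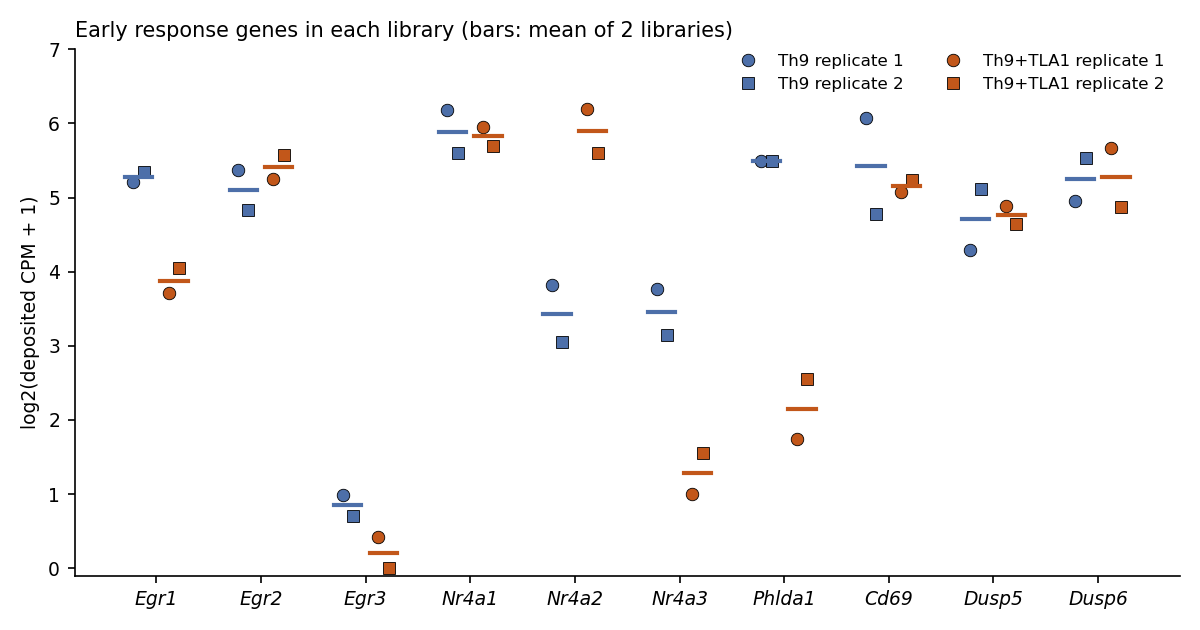
Deposited CPM of each early response gene in each library, as log2(CPM + 1) on the vertical axis; circles are replicate 1, squares replicate 2, and bars the mean of 2 libraries per group. Nr4a2 lies higher with TLA1 in both libraries, Egr1, Nr4a3 and Phlda1 lie lower in both, and the other genes overlap between the groups or, for Egr3, lie near 0.

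The libraries held 2979482 to 4041633 reads counted in genes, and 3 reads, the number that a count of 0 can hide, corresponded to 0.742 to 1.01 CPM. All 6 T cell markers checked were present, with a summed level of 1727 and 2125 CPM without and 2350 and 2256 CPM with TLA1. The B cell marker list summed to 10.4 and 12.9 CPM without and 28.9 and 29.2 CPM with TLA1, with reads for 3 of its 5 genes, most of them in Cd79b, and none for Ms4a1 and Pax5. The macrophage and monocyte list summed to 3.22 and 1.89 CPM without and 7.72 and 4.54 CPM with TLA1, with reads for 3 of 6 genes and none for Lyz2, Csf1r and Cd14. With TLA1 that sum was Cd68 alone, and Adgre1 and Itgam had no reads there and a few without TLA1. The dendritic cell list summed to 5.69 and 3.16 CPM without and 15.4 and 8.76 CPM with TLA1, with reads for 4 of 5 genes, most of them in Zbtb46, and none for Siglech. These 3 small sums and the T cell sum were higher in both TLA1 libraries than in either Th9 library, and their part in the members' results was not tested. The erythroid and neutrophil markers in the data (4 and 3 genes) had 0 reads. Markers of CD8 T cells, natural killer cells, and mast cells and basophils had overlapping groups and summed to at most 13.3 CPM in any library.

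The 3 NR4A genes went different ways: Nr4a2 rose, Nr4a1 overlapped between the groups and Nr4a3 was lower without passing the test. These receptors bind DNA without a known hormone that switches them on, and they are regarded as controlled mainly by how much of them is made.

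The start regions of the NR4A genes are shown because these genes are related and respond to the same receptor, yet their fold changes differed in sign. The sequences are from RefSeq on GRCm38.p6, the assembly of mm10, and run 5′ to 3′ on the gene's strand. For Nr4a1 and Nr4a2 they are the 250 bases before a transcript start annotated in RefSeq. For Nr4a1 that start lies inside the longer gene span in RefSeq, 101253902 to 101274795. For Nr4a3 a stretch of 30 bases is printed, which runs across the start of the gene span at 48045078. Capitals mark TGACG or its reverse complement, the core of the cyclic AMP response element that CREB and related factors bind.
Nr4a1, chr15:101266596-101266845, plus strand: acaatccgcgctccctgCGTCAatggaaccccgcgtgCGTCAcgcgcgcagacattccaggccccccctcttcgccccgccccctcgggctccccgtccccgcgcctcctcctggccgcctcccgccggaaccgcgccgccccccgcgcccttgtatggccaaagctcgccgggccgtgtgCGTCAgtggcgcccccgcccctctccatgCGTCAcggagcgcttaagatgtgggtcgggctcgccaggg
Nr4a2, chr2:57124004-57124253, minus strand: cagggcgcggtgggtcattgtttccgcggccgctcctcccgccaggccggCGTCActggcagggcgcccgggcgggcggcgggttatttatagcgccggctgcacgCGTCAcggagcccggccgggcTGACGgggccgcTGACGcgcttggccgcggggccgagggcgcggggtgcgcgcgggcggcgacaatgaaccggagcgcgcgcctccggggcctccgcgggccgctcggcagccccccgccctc
Nr4a3, chr4:48045070-48045099, plus strand: agggTGACGtagcgtcccatgtCGTCAcat

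Each of the 3 NR4A windows of 250 bases held 4 matches to TGACG on either strand. For Nr4a3, 2 of its 4 matches lie in the stretch printed, and the rest of its window is not shown. Among 32851 such windows in the RefSeq table, 17.8% held at least 1 match and 0.137% held at least 4. These windows were not matched to the NR4A windows for base content. The full element TGACGTCA, which contains the core, had no match in the 3 windows and at least 1 in 1.55% of all windows. The AP-1 motif TGANTCA had no match in the 3 (6.75% of all windows) and neither did the CArG box of the serum response element (1.47%). The NFAT core GGAAA had 1 match in the Nr4a2 window and none in the other two (55.6% of all windows). A match is a string of letters and no evidence of binding in these cells. The count of the core was the same for the gene that rose, the gene that overlapped and the gene whose values were lower. Any link of these matches to expression was not tested.

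Nr4a1, which encodes NUR77 (chromosome 15, 101253902 to 101274795 of mm10), had 71.3 and 47.4 CPM without and 60.7 and 51.0 CPM with TLA1. Both TLA1 values lay between the Th9 values. Its log2 fold change, fitted on log2(CPM + 1), was 0.03 with a 95% interval from -0.57 to 0.62 (limma adjusted p = 0.976), and it was -0.062 when libraries were scaled by total count. Any difference inside that interval is compatible with these libraries.

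Nr4a2, which encodes NURR1 (chromosome 2, 57106830 to 57124003, minus strand), had 13.1 and 7.26 CPM without TLA1, from 53 and 23 reads. With TLA1 it had 72.2 and 47.4 CPM, from 215 and 146 reads. The lowest TLA1 value was well above the highest Th9 value. The group mean rose from 10.2 ± 4.14 to 59.8 ± 17.5 CPM (SD, n = 2 each), and limma put the log2 fold change at 2.55 ± 0.40 (SE, adjusted p = 0.0104). That was the 32nd highest log2 fold change among the 10324 tested genes. Leaving out Th9 replicate 2 ended the call (limma adjusted p = 0.125), although the log2 fold change there was 2.22. When the 3 remaining libraries were tested on the same 10324 genes, the call held without Th9 replicate 2 (0.0250) and was lost without TLA1 replicate 1 (0.0702). The Nr4a2 locus overlaps LOC105244150 in RefSeq, for which no values were analysed here, and the library kit does not mark strand, so reads of the pair cannot be told apart.

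Nr4a3, which encodes NOR1 (chromosome 4, 48045078 to 48086447), lay lower with TLA1. It had 12.6 and 7.89 CPM without TLA1, from 51 and 25 reads, and 1.01 and 1.95 CPM with TLA1, from 3 and 6 reads. Both TLA1 values were below both Th9 values, and TLA1 replicate 1 was at the floor of 3 reads. Over the summed reads, the Th9 level was 7.10 times the TLA1 level, with an exact interval from 3.55 to 16.1 that covers counting error only. The log2 fold change was -2.11 ± 0.66 (SE, 95% interval from -3.55 to -0.67) with a limma adjusted p of 0.149, so it did not pass. With 1 library left out, it lay between -2.39 and -1.83.

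Comparing family members within a library removes the scaling between libraries, apart from its effect through the 1 CPM added to each value. The log2 ratio of Nr4a2 to Nr4a1 was -2.36 and -2.55 without and 0.24 and -0.10 with TLA1. The ratio of Nr4a2 to Nr4a3 was 0.05 and -0.11 without and 5.19 and 4.04 with TLA1. Neither ratio overlapped between the groups. The difference of group means was 2.52 for the first and 4.64 for the second, on the log2(CPM + 1) scale. The second difference depends on the added CPM, since Nr4a3 had 3 and 6 reads with TLA1. It was 3.54 with 4 CPM added and 5.17 with 0.25 CPM added. With 2 libraries per group these ratios are a description and no test was made.

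As shares of the reads in the NR4A genes, Nr4a2 made up 13.5% (Wilson 95% interval 10.5 to 17.3) and 11.6% (7.87 to 16.8) in the Th9 libraries. With TLA1 it made up 53.9% (49.0 to 58.7) and 47.2% (41.8 to 52.8). The share of Nr4a1 went from 73.5% and 75.8% to 45.4% and 50.8%, and that of Nr4a3 from 13.01% and 12.6% to 0.752% and 1.94%. In both TLA1 libraries Nr4a1 and Nr4a2 thus made up nearly all NR4A reads, in near equal parts. The family as a whole summed to 97.0 and 62.5 CPM without and 134 and 100.3 CPM with TLA1. The highest Th9 sum thus lay just under the lowest TLA1 sum, while the shares of Nr4a2 and Nr4a3 lay far apart. Shares of reads depend on transcript length, which is the same in every library for a given gene model. The intervals treat reads as independent and leave out the spread between libraries. Amplified reads are not independent molecules, so the intervals can be too narrow. The shares were chosen for display after the members' values were seen.

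**Figure D2:**
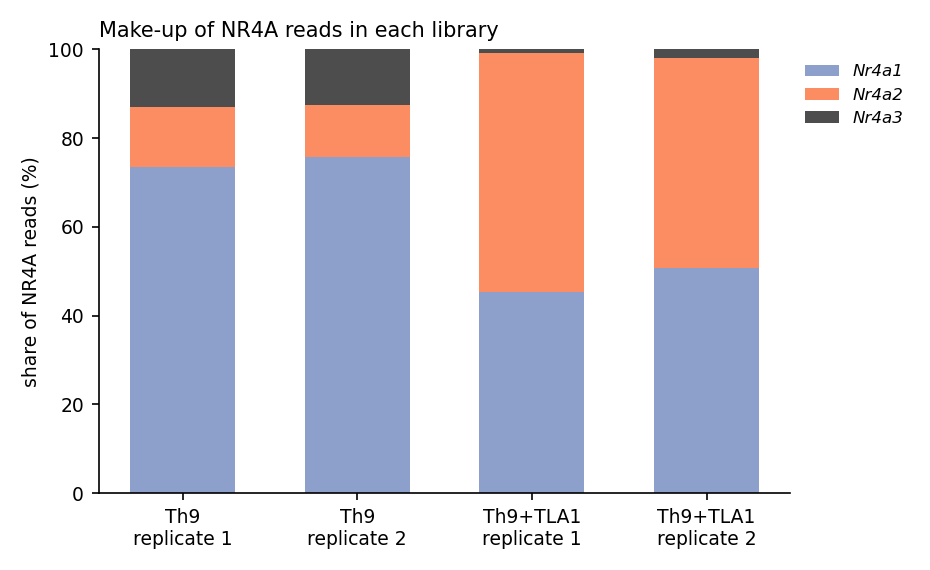
Share of reads in Nr4a1, Nr4a2 and Nr4a3 in each library, in percent of the reads in the 3 genes; each bar is 1 library. Nr4a2 takes 13.5% and 11.6% of them without TLA1 and 53.9% and 47.2% with it, and Nr4a3 drops from over 12% to under 2%.

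Among the EGR factors, Egr1 and Egr2 had fold changes of opposite sign in the same libraries, neither of which passed the test. Egr1, a zinc finger factor strongly induced by ERK signals, had 36.1 and 39.5 CPM without and 12.1 and 15.6 CPM with TLA1. The groups were far apart relative to the gap within each. The mean was 37.8 ± 2.36 CPM without and 13.8 ± 2.47 CPM with TLA1 (SD, n = 2 each). The log2 fold change was -1.31 with a 95% interval from -2.11 to -0.51. It did not pass over all genes (limma adjusted p = 0.120), and in no alternative analysis did it pass, with log2 fold changes between -1.47 and -1.14.

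Egr2 (chromosome 10, 67534469 to 67542188), which with Egr3 is known for restraining T cell activation, had 40.6 and 27.5 CPM without and 36.9 and 46.4 CPM with TLA1. The lower TLA1 library lay inside the Th9 range of deposited CPM; after TMM scaling it lay just above that range. The log2 fold change was 0.39, with a 95% interval from -0.29 to 1.08 (limma adjusted p = 0.579). The log2 ratio of Egr2 to Egr1 within a library was 0.16 and -0.51 without and 1.54 and 1.52 with TLA1. This ratio did not overlap between the groups, and the difference of its group means was 1.70, given with no test.

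Egr3 (chromosome 14, 70077317 to 70082613) had 4 and 2 reads without and 1 and 0 reads with TLA1, 0.990 CPM at the most. It did not pass the filter on low values, and no fold is given because the values lie near or under the floor of 3 reads. An exact Poisson interval for the 4 reads of Th9 replicate 1 runs from 1.09 to 10.2 reads. Egr3 was thus barely detected in these cells, while Egr2 had 87 to 164 reads per library.

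Phlda1, which encodes a pleckstrin homology-like domain protein also known as TDAG51, gave the largest change of the members. It had 44.0 and 43.9 CPM without TLA1, from 178 and 139 reads. With TLA1 it had 2.35 and 4.87 CPM, from 7 and 15 reads. The Th9 libraries were nearly identical, and both TLA1 libraries lay far below them. Over the summed reads the Th9 level was 12.1 times the TLA1 level (exact interval 7.86 to 19.6, counting error only).

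For Phlda1 limma gave a log2 fold change of -3.26 ± 0.47 (SE) and an adjusted p of 0.00741, and the fold change was the 4th lowest among the 10324 tested genes. Every alternative analysis gave a negative log2 fold change, from -3.67 to -2.61. The call ended when Th9 replicate 1 (limma adjusted p = 0.0804) or Th9 replicate 2 (0.139) was left out; on the same 10324 genes these were 0.110 and 0.0411. Its locus (chromosome 10, 111506286 to 111508649 of mm10, plus strand) overlaps Gm28592, a noncoding RNA gene on the opposite strand in GENCODE. As for Nr4a2, reads of the pair cannot be told apart.

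**Figure D3:**
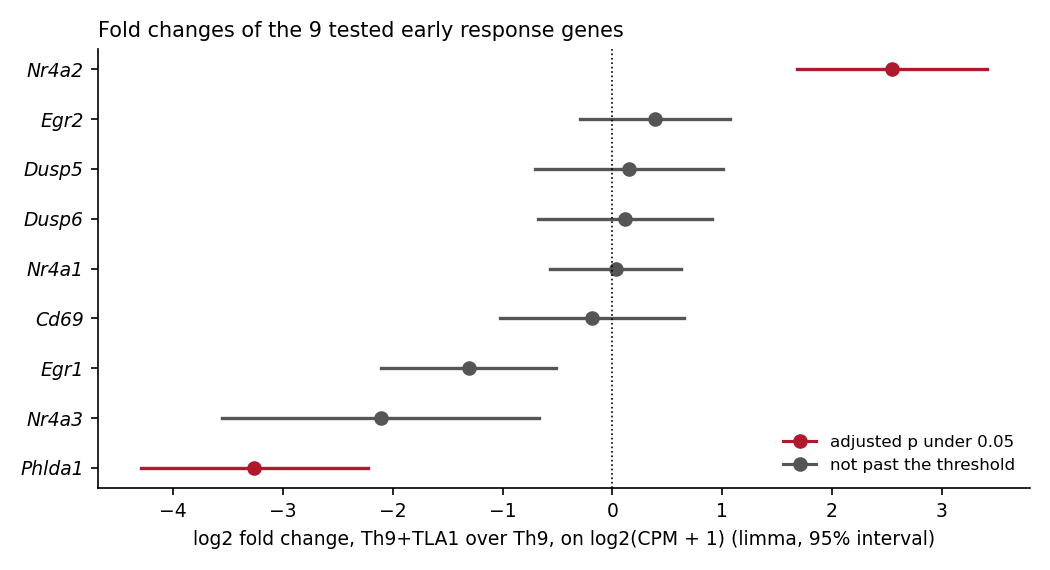
Log2 fold change of each tested early response gene, Th9+TLA1 over Th9 on log2(CPM + 1), with limma's 95% interval as a horizontal line; red marks an adjusted p under 0.05 over all genes. Nr4a2 at 2.55 and Phlda1 at -3.26 pass, the intervals of Egr1 and Nr4a3 stay below 0 without passing, and the other 5 intervals include 0.

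Cd69, a lectin-type surface receptor that holds recently stimulated lymphocytes in tissue (chromosome 6, 129267324 to 129275375), had 66.6 and 26.5 CPM without and 32.6 and 36.7 CPM with TLA1. The Th9 libraries stood on either side of both TLA1 libraries, so the spread within Th9 was larger than the difference between groups. Its log2 fold change was -0.19 (95% interval from -1.03 to 0.65, limma adjusted p = 0.857). The sign turned with Th9 replicate 1 left out, where it was 0.41.

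The phosphatases showed the same picture. Dusp5 (chromosome 19, 53529145 to 53541809), a nuclear phosphatase that acts on ERK, had 18.6 and 33.8 CPM without and 28.5 and 24.0 CPM with TLA1. Dusp6 (chromosome 10, 99263231 to 99267489), its cytoplasmic counterpart, had 29.9 and 45.5 CPM without and 50.01 and 28.2 CPM with TLA1. For both, the groups overlapped and the libraries of one group differed by more than the group means did. The log2 fold changes were 0.15 (95% interval from -0.71 to 1.0) for Dusp5 and 0.12 (-0.68 to 0.91) for Dusp6, with limma adjusted p = 0.896 and 0.916. Both turned negative without Th9 replicate 1 (-0.31 and -0.22), and Dusp6 also without TLA1 replicate 1 (-0.29). The log2 ratio of Dusp5 to Dusp6 was -0.66 and -0.42 without and -0.79 and -0.22 with TLA1, again overlapping. The same limit holds for Dusp5, which overlaps the antisense gene AC137853.2 in GENCODE, and for Dusp6 and Egr2, which overlap Gm34921 and Gm32255 in RefSeq.

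Levels of different genes were compared only per kilobase of exon, as CPM divided by the summed exon length in the GENCODE annotation. In the Th9 libraries Cd69 came first with 27.6 ± 16.8 CPM per kilobase, followed by Phlda1 with 22.6 ± 0.0563 and Nr4a1 with 22.1 ± 6.31 (SD, n = 2). These 3 did not differ beyond their spread. Dusp6, Egr2, Dusp5 and Egr1 followed with 13.5 ± 3.93, 10.7 ± 2.91, 10.6 ± 4.35 and 8.43 ± 0.527 CPM per kilobase, and neighbours in this order did not differ beyond their spread either. Nr4a2 (2.72 ± 1.11), Nr4a3 (1.79 ± 0.584) and Egr3 (0.198 ± 0.0617) were lowest. With TLA1, Nr4a1 (20.8 ± 2.59), Cd69 (20.5 ± 1.73) and Nr4a2 (16.0 ± 4.68) had the highest means, followed by Dusp6 (14.0 ± 5.50) and Egr2 (13.1 ± 2.11). The libraries of Nr4a2 overlapped those of Nr4a1, Dusp6 and Egr2, so these places were not told apart beyond the spread. By its mean, Phlda1 moved from rank 2 to rank 8 (1.85 ± 0.914 CPM per kilobase) and Nr4a2 from rank 8 to rank 3.

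**Figure D4:**
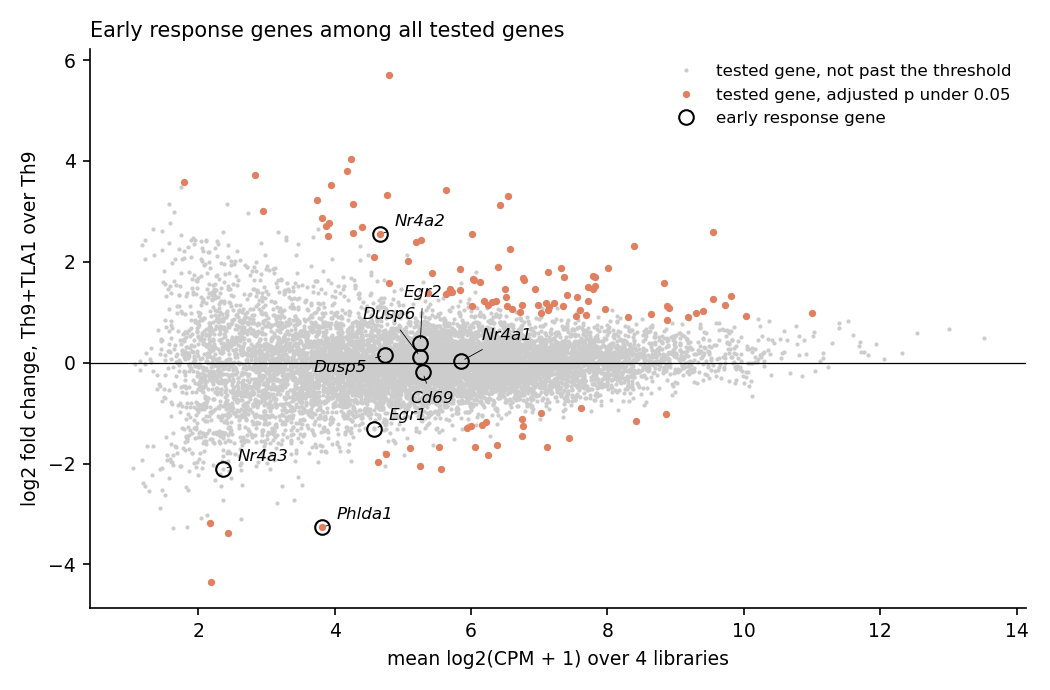
Mean level on the horizontal axis, log2(CPM + 1) over 4 libraries, against the log2 fold change with TLA1 for all 10324 tested genes; orange points passed at an adjusted p under 0.05 and open circles are early response genes. Nr4a2 has the 32nd highest and Phlda1 the 4th lowest log2 fold change. The 5 members whose groups overlap in deposited CPM lie between -0.19 and 0.39.

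The rest of the pathway was read from 8 further lists, described by counts and medians with no set test. Of their 169 tested genes, 1 was called higher (0.592%) and 1 lower (0.592%), near the shares of 0.891% and 0.252% over all tested genes, so the counts say nothing particular about the lists. The median log2 fold change of all tested genes was -0.01. Among 23 tested genes of proximal T cell receptor signalling, Fyn was called lower and none was called higher. Fyn, a Src family kinase that phosphorylates the receptor's chains together with Lck, had 302 and 249 CPM without and 131 and 145 CPM with TLA1. Both TLA1 values lay below both Th9 values. In limma the log2 fold change was -0.90 ± 0.19 (SE) at an adjusted p of 0.0413, and the call was lost whichever library was left out (adjusted p from 0.109 to 0.217). On the same 10324 genes, the call held without Th9 replicate 2 (0.0396). The median log2 fold change of that list was 0.16, with 16 of 23 genes above 0 and 7 below.

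Among 23 tested inhibitors of T cell receptor signalling, Cd5 was called higher and none was called lower. The list's median log2 fold change was 0.04, with 13 genes above 0 and 10 below. Cd5, a surface receptor that dampens the T cell receptor and is known to follow its signal strength, had 109 and 116 CPM without and 257 and 210 CPM with TLA1. The groups were far apart and in limma the log2 fold change was 1.13 ± 0.20 (SE) at an adjusted p of 0.0204. That call ended without Th9 replicate 1 (0.0928), without Th9 replicate 2 (0.120) and without TLA1 replicate 1 (0.0633). On the same 10324 genes, it was lost without Th9 replicate 1 (0.115) and without TLA1 replicate 1 (0.127).

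None of the other 6 lists held a called gene in limma's fit. Among 24 tested genes of other immediate early transcription factors and EGR corepressors, 9 had an unadjusted p under 0.05 (16.7% of all tested genes did), and the median was 0.25. The most abundant, Bhlhe40, a helix-loop-helix repressor, had 751 and 1098 CPM without and 1709 and 1413 CPM with TLA1. Its groups did not overlap, and the limma fit (log2 fold change 0.87, adjusted p = 0.0965) did not call it, though DESeq2 called it (adjusted p = 0.00775). Among 12 tested MAP kinase phosphatases, Sprouty and SPRED genes the median was 0.24, and 2 had an unadjusted p under 0.05. The most abundant, Dusp4, another phosphatase of MAP kinases, had 235 and 265 CPM without and 257 and 247 CPM with TLA1, which overlapped.

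In RNA, the listed genes of the routes from the receptor to the members had medians near that of all tested genes. The activity of these routes was not measured. Among 23 tested Ras and ERK genes the median was -0.05, and 4 had an unadjusted p under 0.05 (16.7% of all tested genes did). Among 24 tested calcium and NFAT genes the median was 0.05 and none had an unadjusted p under 0.05.

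Among 22 tested activation-induced surface proteins and cytokines the median was 0.13, and 4 had an unadjusted p under 0.05 (16.7% of all tested genes did). Il2ra, the interleukin 2 receptor alpha chain, had 2977 and 3137 CPM without and 3599 and 3564 CPM with TLA1. Both TLA1 libraries were higher, and the log2 fold change of 0.32 did not pass (limma adjusted p = 0.437). Among 18 tested quiescence genes, which receptor signals are known to lower, the median was 0.33. Of them, 9 had an unadjusted p under 0.05, beside the same 16.7% of all tested genes. Ccr7, a homing receptor for lymph nodes, had 482 and 581 CPM without and 940 and 708 CPM with TLA1. Its groups did not overlap and limma did not call it (log2 fold change 0.72, adjusted p = 0.122), though DESeq2 called it (adjusted p = 0.0235).

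**Figure D5:**
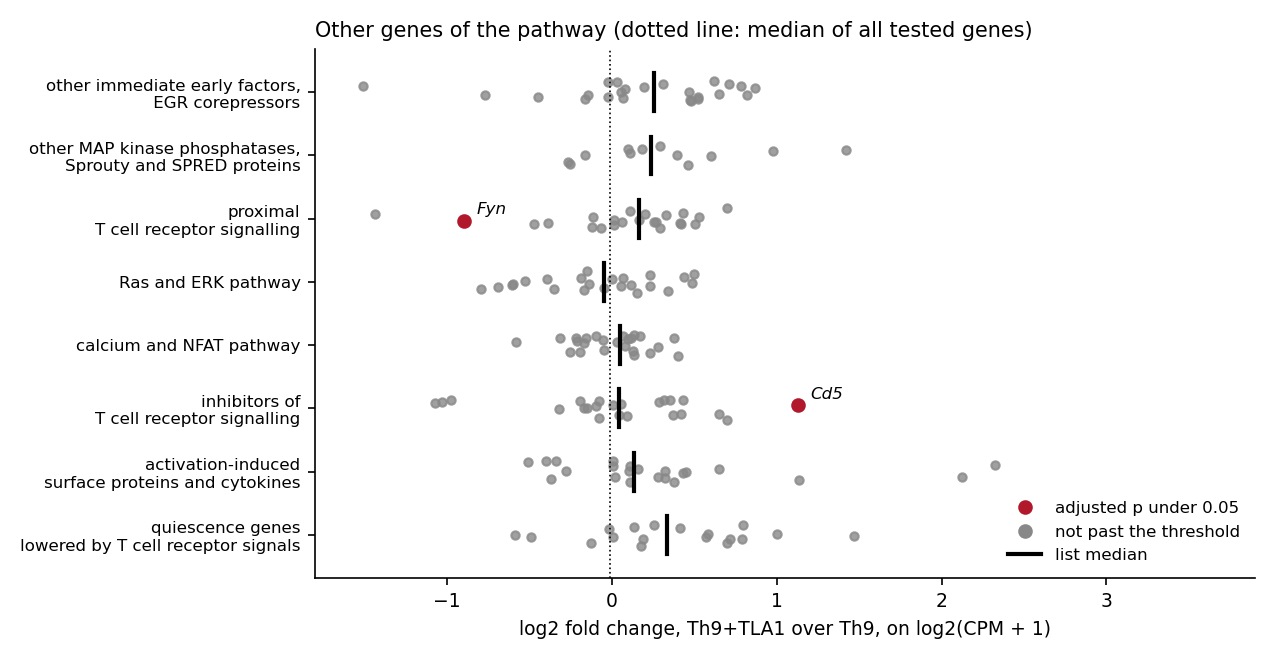
Log2 fold change with TLA1 of each tested gene in 8 further lists of the pathway; 1 point is 1 gene, the black bar is the list's median, the dotted line the median of all tested genes, and red marks an adjusted p under 0.05. Fyn at -0.90 and Cd5 at 1.13 are the red points, and list medians run from -0.05 to 0.33.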

How the data were processed

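Per the labels' protocols, a SMARTer Ultra Low Input kit made cDNA from total RNA, and Ion Torrent sequencing followed. Of tools and builds, mm10, edgeR and HTSeq 0.5.4 stand in the submitters' processing notes; in the sources used here the aligner is not given, nor is the annotation. The authors deposited CPM, with 1 file for each library. In them 100% of non-zero values were whole multiples of 1 read within 0.01 of a read, which gave back whole reads. RefSeq (GRCm38.p6) matched 23383 of 23480 identifiers. Genes were kept with filterByExpr (minimum count 10), CPM were divided by TMM factors (0.964 to 1.06), and limma (lmFit, then eBayes with a trend) was run on log2(CPM + 1) with group as its single term. A gene was called where the p adjusted over all 10324 genes (Benjamini-Hochberg) was under 0.05. Printed CPM are the deposited ones.

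The members and lists were chosen with earlier results of these data known. All members were named; of each further list, up to 3 called genes with the largest fold change or, with none called, the most abundant gene (for the Ras and ERK and the calcium and NFAT lists it is not reported here). On simulated data with known changes, every changed gene that was called had the right sign, and the share of false calls was above the nominal share in each limma run. Chi-square per degree of freedom between replicates was 12.6 (Th9) and 7.64 (TLA1). The alternatives tried were RLE, upper quartile and total count scaling, pseudocounts of 0.25 and 4 CPM, other filters, eBayes without a trend, a replicate block, edgeR, DESeq2 and limma voom on recovered reads, and leaving out each library. Leaving out a library with the gene set held fixed, and edgeR's legacy test, were chosen after seeing the data. The edgeR quasi-likelihood test on recovered reads called 161 genes. Software was DESeq2 1.42.0, edgeR 4.0.16 and limma 3.58.1 under R 4.3.3, and matplotlib 3.10.9, scipy 1.17.1, numpy 2.4.6 and pandas 2.3.3 under Python 3.11.15.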

Additional observations from a re-analysis of the deposited data

How the results depend on the processing

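Nr4a2, Phlda1, Egr1, Nr4a3 and Egr2 kept their direction in every alternative that tested them (Nr4a3 was not tested with at least 10 CPM in 2 libraries). Without a filter on low values Nr4a2 (log2 fold change 2.55, adjusted p = 0.0511) and Phlda1 (-3.26, 0.0509) lost their calls, and eBayes without a trend called no gene at all (0 of 10324, with 1373 at an unadjusted p under 0.05; Nr4a2 2.55, adjusted p = 0.151, and Phlda1 -3.26, 0.124), so that 0 members were called higher and 0 lower in both. Leaving out single libraries moved the log2 fold change of Nr4a2 between 2.21 and 2.89, of Phlda1 between -3.67 and -2.86, of Nr4a1 between -0.21 and 0.28, of Cd69 between -0.78 and 0.42, of Dusp5 between -0.31 and 0.62 and of Dusp6 between -0.29 and 0.52, and members called between 0 and 1 in each direction. Nr4a1 also turned with total count scaling (-0.062) and edgeR (-0.0085); total count scaling put the median of all tested genes at -0.10. With a library left out, Dusp4 lay between -0.025 and 0.25, below 0 without Th9 replicate 1.

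All called genes numbered 118, and 73 with total count scaling, 33 without a filter, 0 without a trend, 225 with the replicate block, 275 with DESeq2, and 19 to 312 with a library left out; without Th9 replicate 2 the count was 19, and 312 with the gene set held fixed. Further-list genes called higher numbered 1, and 0 without a filter or trend, 3 with the replicate block, 6 with DESeq2, 2 with limma voom and 0 to 11 with a library left out. Those called lower numbered 1, and 2 with upper quartile or total count scaling, a pseudocount of 4, the 10 CPM filter, edgeR, DESeq2 or voom, 0 with a pseudocount of 0.25, no filter, no trend or legacy edgeR, and 0 to 2 with a library left out. With a pseudocount of 4 the differences in log2 ratio were 2.23 for Nr4a2 to Nr4a1 and 3.54 for Nr4a2 to Nr4a3. The ratio of Egr2 to Egr3 is no measurement, since Egr3 lies near or under the floor of 3 reads and the pseudocount sets the value (0.94 with 1, 0.49 with 4, 1.76 with 0.25). That of Dusp5 to Dusp6 (0.03) lay between -0.25 and 0.31 with a library left out, Nr4a2 to Nr4a1 between 2.35 and 2.70, Nr4a2 to Nr4a3 between 4.06 and 5.22 and Egr2 to Egr1 between 1.36 and 2.03. The cause of the other shifts was not tested. The labels share replicate numbers and do not say whether these pair the libraries. Deviations of same-numbered libraries from their group means had a correlation of -0.011. With 2 libraries per group this is a single value, the same for both numbers, and it cannot decide whether the libraries are paired. With the replicate block Nr4a2 and Phlda1 stayed called (limma adjusted p = 0.000748 for each). A fit without 1 library assumes that the lone library of a group varies like the other group. Members with under 10 reads per library, such as Nr4a3 with TLA1, are limited by depth.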
